A study of Mus musculus with 20 samples.

Results

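The genes described here are 5 genes of the thick ascending limb of the kidney, Slc12a1, Umod, Kcnj1, Bsnd and Casr, taken by symbol from the deposited count table, where they are 5 of 47069 genes. All 5 were among the 17622 genes with enough counts to be tested. The study asked how an oligonucleotide against miR-21 and an inhibitor of the angiotensin-converting enzyme (ACEi) change the kidney in a mouse model of Alport syndrome, an inherited disease of the type IV collagen of the glomerular basement membrane. Total kidney RNA of 20 mice at 15 weeks of age was sequenced, 1 library per mouse. All were of the strain 129SJ x C57Bl/6J. The WT group had 5 untreated mice, so that it differs from Veh by the injections as well as by genotype. The other groups were Col4a3-/- mice, which carry the disrupted gene in every cell. Of these, 6 mice received PBS once a week under the skin (Veh), 6 received lademirsen, the anti-miR-21 oligonucleotide, at 50 mg/kg (Anti-miR-21) and 3 received ramipril (ACEi), all from 5 weeks of age. The labels give ramipril as 11 mg/L in the drinking water and the deposited library table as 4 mg/kg. The mice were males according to the study's methods, and the ACEi mice also received PBS.

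The thick ascending limb reabsorbs salt without water, which dilutes the urine and makes the medulla salty. Its cells take up sodium, potassium and chloride from the urine through the cotransporter NKCC2 (Slc12a1), return potassium to the urine through the channel ROMK (Kcnj1), and release chloride to the blood through channels that need the subunit barttin (Bsnd). The calcium-sensing receptor (Casr) on the blood side slows this transport when calcium is high, and uromodulin (Umod), the most abundant protein of normal urine, is made in these cells and secreted. Loss of NKCC2, ROMK or barttin gives forms of Bartter syndrome. Kcnj1 is also expressed further along the nephron, and Bsnd also in intercalated cells, so that these genes do not mark the limb alone.

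In GRCm38, Slc12a1 (ENSMUSG00000027202) lies on the plus strand at chr2:125152505-125230002 and Kcnj1 (ENSMUSG00000041248) on the plus strand at chr9:32372493-32399197. Umod (ENSMUSG00000030963) lies on the minus strand at chr7:119462711-119479282, Bsnd (ENSMUSG00000025418) on the minus strand at chr4:106483456-106492283 and Casr (ENSMUSG00000051980) on the minus strand at chr16:36493696-36562141. The annotation places Gm14002 antisense to Slc12a1, with at most 7 counts in a mouse, and a short RNA gene, Gm25902, within Casr, with at most 1 count. Gm44588, annotated antisense to Umod, was not analysed here. Whether the counting used strand is not given in the sources used here.

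The sequence that the Anti-miR-21 treatment is directed at is shown first, because 2 of the 5 genes hold a match to it. The mature mouse miR-21 strand, as RefSeq gives it (chr11:86584120-86584141, minus strand, GRCm38.p6), is written with its seed, bases 2 to 8, in capitals.
mmu-miR-21a-5p: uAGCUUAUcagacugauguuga
A match to the seed, the letters ATAAGCT, was searched on the transcribed strand in the longest annotated 3′ untranslated region of each gene (GENCODE vM21). It occurred once in Slc12a1 (chr2:125229451-125229457) and once in Casr (chr16:36494195-36494201), and in none of Umod, Kcnj1 and Bsnd. Of 20999 genes with such a region, 7.2% held at least 1 match. The sites are shown with their flanks, the match in capitals.
Slc12a1 site: tgcagcggataATAAGCTtaccctctgat
Casr site: aaagcaaggctATAAGCTacccacctgct
A match of these letters is a description of the sequence and does not show that miR-21 binds there. This search was chosen after the data had been seen, and miR-21 itself was not analysed here.

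RefSeq gives a promoter for 4 of the 5 genes, and Bsnd had no entry. In the full 250 bases before each start, 3 motifs were searched on both strands: AAGGTCA, a half-site of nuclear receptors (present in 4.09% of all 32536 distinct windows of this length), TGACGT, the core of the cyclic AMP response element (6.5%), and TATAAA, the TATA box (12.3%). None of the 3 was found in the windows of Slc12a1, Umod, Kcnj1 and Casr, which says nothing about the factors that act there, and no promoter is therefore shown. The Kcnj1 window lies before a start inside the annotated gene.

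Counts on genes summed to between 28474301 and 29479629 per mouse. Values are given as CPM, the counts relative to the library total after TMM scaling, which sets libraries to a common level from the bulk of the genes. The TMM factors were 0.771 to 0.85 in WT and 1.12 to 1.26 in Veh, so that scaled and unscaled differences between these groups are not the same. Col4a3 was at 194 to 237 CPM in WT and at 27.9 to 74.8 CPM in all Col4a3-/- mice, below every WT mouse. The libraries were run on 2 flow cells, as the library names show, and the 2 Veh mice of flow cell B (A16 and A20, replicates 4 and 6) stood apart from the other 4 in several of the genes. Results are therefore also given within each flow cell. The labels give kidney as the tissue, although their extraction text names adipose tissue. Markers of proximal tubule summed to 1190 to 12758 CPM, against 22.2 to 277 CPM for 5 adipocyte markers.

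On the deposited FPKM scale, which divides by transcript length and so allows levels of different genes to be compared, the order in WT was Umod, Slc12a1, Kcnj1, Bsnd and Casr. The levels were 1679 ± 161 FPKM for Umod, 134 ± 23.02 for Slc12a1, 57.4 ± 5.99 for Kcnj1, 28.9 ± 2.56 for Bsnd and 3.29 ± 0.43 for Casr (SD, n = 5). The ranges of neighbouring genes in this order did not overlap among the WT mice, and the order of the means was the same in Veh, Anti-miR-21 and ACEi. The authors' gene table marks none of the 5 genes as confounded with another gene.

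The comparison of Veh with WT asks how these genes stood in diseased kidneys without an active treatment. All 5 were lower in Veh, by 0.87 to 1.18 on the log2 scale, and in each gene every Veh mouse was below every WT mouse. By edgeR's quasi-likelihood test, 34% of all genes tested were called lower in Veh and 73% were called in either direction. For 26.1% of the genes tested every Veh mouse was below every WT mouse. A call of this kind was thus common among all genes. Slc12a1 fell by 53.5%. Casr, the gene with the smallest change, fell by 45.2%.

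Slc12a1 in WT was at 566, 740, 742, 829 and 847 CPM. In Veh its lowest value was 216 CPM, its median 313 CPM and its highest 499 CPM. The highest Veh values were those of A20 at 499 CPM and A16 at 448 CPM, and the other 4 were at or below 329 CPM. The fitted log2 fold change was -1.10 (SE 0.18, edgeR adjusted p = 1.86e-05).

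Kcnj1, whose channel returns potassium to the cotransporter, was at 194, 195, 215.4, 218.1 and 243 CPM in WT. In Veh it ranged from 67.1 to 126 CPM with a median of 91.3 CPM, and A16 and A20 were again highest. The log2 fold change was -1.13 (SE 0.13, edgeR adjusted p = 2.12e-07). Bsnd, the barttin gene, was at 88.2, 89.9, 94.7, 101 and 103 CPM in WT. In Veh it ranged from 29.8 to 56.9 CPM with a median of 41.2 CPM. Its values in Veh were split, with 3 mice at 29.8 to 33.9 CPM and 3, among them A16 and A20, at 48.5 to 56.9 CPM. Bsnd fell by 1.18 on the log2 scale (SE 0.14, edgeR adjusted p = 1.91e-07).

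Umod was at 4787, 4954, 5075, 5123 and 5717 CPM in WT. In Veh its lowest value was 1795 CPM, its median 2361 CPM and its highest 4202 CPM. A16 at 4202 CPM and A20 at 3712 CPM came close to the WT mice, whereas the other 4 were at or below 2664 CPM. The log2 fold change was -0.90 (SE 0.18, edgeR adjusted p = 0.000185). Casr, which senses calcium on the blood side, was at 15.9, 16.2, 17.2, 18.6 and 20.8 CPM in WT and at 8.26 to 11.6 CPM in Veh, with a median of 9.55 CPM. The Veh mice lay close together and A16 did not stand out for this gene. The log2 fold change was -0.87 (SE 0.13, edgeR adjusted p = 3.34e-06).

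**Figure D1:**
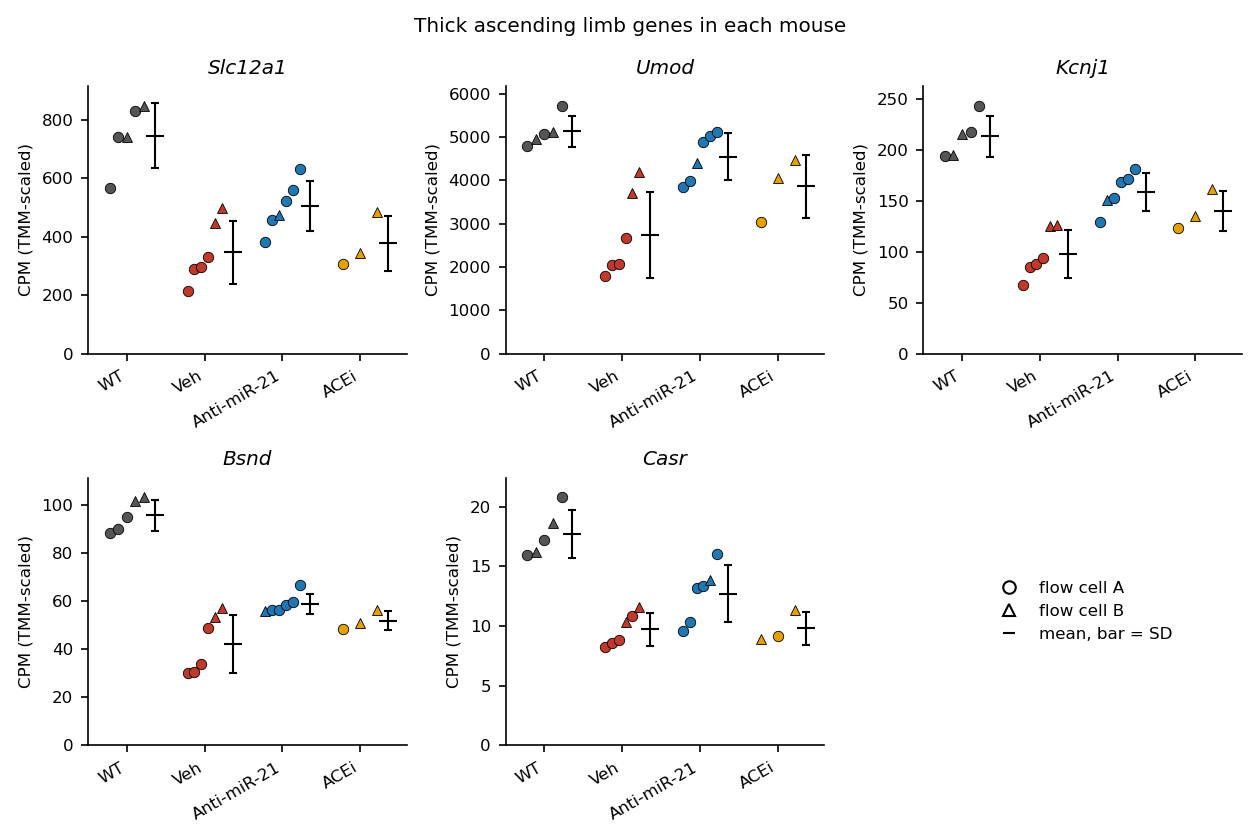
Level of each gene in every mouse in CPM after TMM scaling (y axis, from 0) by group (x axis), with circles for flow cell A, triangles for flow cell B and the mean ± SD beside the points. Every Veh mouse lies below every WT mouse in all 5 genes, and the triangles of Veh are its 2 highest values in Slc12a1, Umod, Kcnj1 and Bsnd.

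Within flow cell A, 5 of 5 genes were called lower in Veh, with log2 fold changes from -1.37 for Kcnj1 to -0.96 for Casr, where 65.2% of all genes tested there were called in either direction. Within flow cell B, which held 2 mice of each of these groups, 4 of 5 were called, and Umod was not (log2 fold change -0.35, edgeR adjusted p = 0.157), where 50.1% of all genes were. In Veh, A16 and A20 also had the highest sums of proximal tubule markers, at 3161 and 2318 CPM against 1190 to 1776 CPM in the other 4, and the lowest sums of macrophage markers, at 1186 and 1198 CPM against 1295 to 1443 CPM. Not all lists set these mice apart. In fibroblast markers A16 was lowest at 1503 CPM, but A20 at 1692 CPM lay within the range of the other 4. In tubule injury markers A20 was lowest at 1251 CPM, but A16 at 1475 CPM lay above A19 at 1409 CPM. A16 had the highest T cell sum of Veh, 41.6 CPM. The part of these differences in the values above was not tested. In RNA of whole kidneys, fewer cells of the limb and less RNA per cell cannot be told apart.

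Anti-miR-21 was compared with Veh to see how far the treatment moved these genes. All 5 were higher in Anti-miR-21, by 0.39 to 0.73 on the log2 scale, or 30.8% to 65.5% above Veh. Of all genes tested, 28.8% were called higher in this comparison and 59.2% were called in either direction. Every Anti-miR-21 mouse was above every Veh mouse in 1 gene, Kcnj1, and this held for 18.6% of all genes tested.

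Slc12a1 in Anti-miR-21 ranged from 383 to 632 CPM with a median of 499 CPM, and A16 and A20 of Veh lay within this range. It rose by 0.54 on the log2 scale (SE 0.18, edgeR adjusted p = 0.0118). Kcnj1 ranged from 129 to 181 CPM with a median of 161 CPM, so that its lowest treated mouse was just above the highest Veh mouse at 126 CPM. Its log2 fold change was 0.70 (SE 0.13, edgeR adjusted p = 9.8e-05). Bsnd was within a narrow range, with 5 mice at 55.6 to 59.3 CPM and 1 at 66.5 CPM, and its median was 57.2 CPM. It overlapped Veh through A20 at 56.9 CPM. Its log2 fold change was 0.48 (SE 0.13, edgeR adjusted p = 0.00441).

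Umod ranged from 3837 to 5116 CPM in Anti-miR-21 with a median of 4650 CPM, and overlapped Veh through A16 only. Its log2 fold change of 0.73 was the largest of the 5 (SE 0.18, edgeR adjusted p = 0.0015). Casr ranged from 9.59 to 16.02 CPM with a median of 13.3 CPM. Of its 6 treated mice, 4 were at or above 13.2 CPM, above all Veh mice, and 2 were at 9.59 and 10.3 CPM within the range of Veh. The log2 fold change was 0.39 (SE 0.12, edgeR adjusted p = 0.00959). The 2 genes that hold a seed match, Slc12a1 and Casr, had the third largest and the smallest of the 5 changes.

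Within flow cell A, 5 of 5 genes were called higher in Anti-miR-21, with log2 fold changes from 0.46 for Casr to 1.10 for Umod, and 53.5% of all genes tested there were called in either direction. Within flow cell B, with 1 Anti-miR-21 mouse and the Veh mice A16 and A20, 0 of 5 were called by edgeR, and 2.33% of all genes tested there were. The log2 fold changes were 0.0053 for Slc12a1, 0.018 for Bsnd, 0.16 for Umod, 0.26 for Kcnj1 and 0.34 for Casr. There the lone mouse is assumed to vary like the other groups. With flow cell as a term in the fit, 5 of 5 were called, beside 59% of all genes tested.

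ACEi was compared with the same 6 Veh mice, so this comparison shares its controls with the one above. Of the 5 genes, 1 was called higher in ACEi, Kcnj1, and 21% of all genes tested were called higher (40.1% in either direction). In no gene did the ACEi mice lie apart from the Veh mice, whereas 19.8% of all genes tested had every ACEi mouse above every Veh mouse.

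Slc12a1 was at 306, 343 and 484 CPM in ACEi, within the range of Veh. The log2 fold change was 0.12 (SE 0.21, edgeR adjusted p = 0.672). Kcnj1 was at 124, 135 and 161 CPM, with 1 mouse below the highest Veh mouse. Its log2 fold change was 0.52 (SE 0.15, edgeR adjusted p = 0.0112). Bsnd was at 48.4, 50.7 and 56.3 CPM, in the upper part of the Veh range, with a log2 fold change of 0.30 that was not called (SE 0.16, edgeR adjusted p = 0.149).

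Umod was at 3048, 4054 and 4476 CPM in ACEi, above the 4 Veh mice of flow cell A and overlapping A16 and A20. Its log2 fold change of 0.49 was not called (SE 0.21, edgeR adjusted p = 0.0711). Casr was at 8.87, 9.16 and 11.3 CPM in ACEi and thus within the range of Veh. Its log2 fold change was 0.0105 (SE 0.15, edgeR adjusted p = 0.964).

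The ACEi count depended on single mice. Without A16 (Veh replicate 4) or without A20 (Veh replicate 6), 3 genes were called higher, Kcnj1, Umod and Bsnd. Without A11 (ACEi replicate 1), the mouse highest in all 5 genes in its group, 0 were called by edgeR, and without A23 (ACEi replicate 3) Kcnj1 and Umod were called. Of all genes tested, 41.7% were called in either direction without A16, 39.4% without A20, 31.8% without A11 and 33.1% without A23. Within flow cell A, which held 1 ACEi mouse, Kcnj1 alone was called (log2 fold change 0.58, edgeR adjusted p = 0.0497), beside 16.6% of all genes. Within flow cell B 0 of 5 were called, beside 7.35% of all genes.

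**Figure D2:**
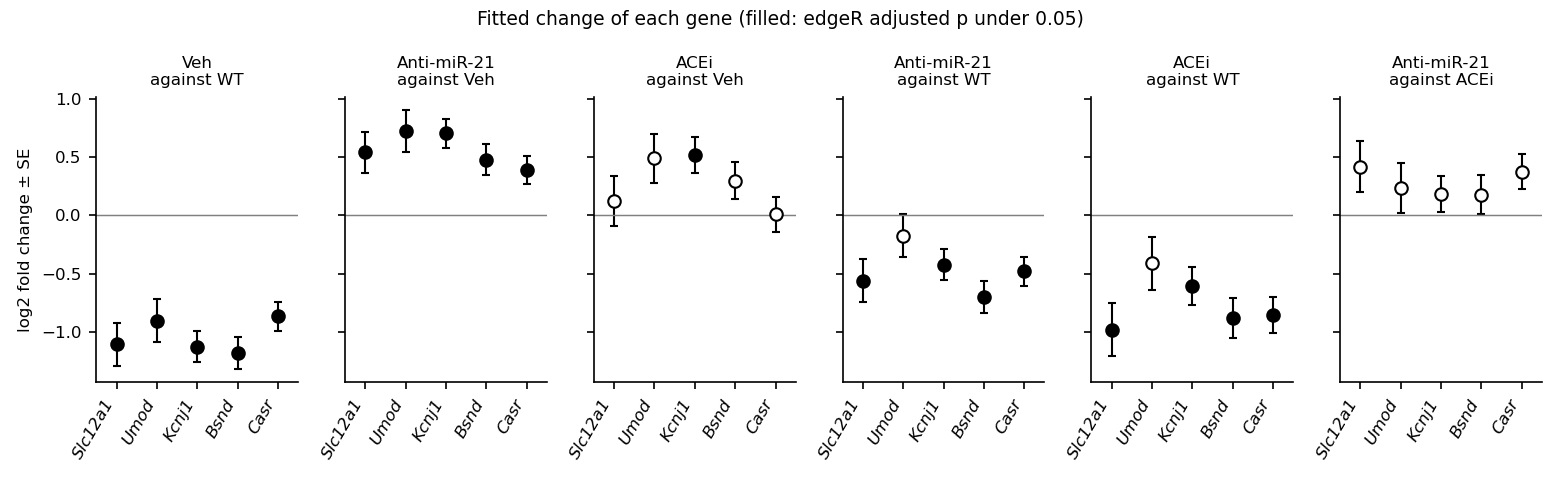
Fitted log2 fold change of each gene with its SE (y axis) in the 6 comparisons between groups (panels), filled where edgeR's adjusted p was under 0.05. All 5 points are filled in the panels of Veh against WT and of Anti-miR-21 against Veh, 1 is filled for ACEi against Veh and none for Anti-miR-21 against ACEi.

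Both treated groups were also compared with WT. In Anti-miR-21, 4 of 5 genes were called lower than in WT, where 19.8% of all genes tested were, and 43.7% in either direction. The log2 fold changes of these 4 were -0.70 for Bsnd, -0.56 for Slc12a1, -0.48 for Casr and -0.42 for Kcnj1, with edgeR adjusted p of 0.000455, 0.0184, 0.00466 and 0.0148. Umod was not called (log2 fold change -0.18, SE 0.18, edgeR adjusted p = 0.465), and its treated mice overlapped WT. Every treated mouse was below every WT mouse in Kcnj1 and Bsnd, which held for 9.06% of all genes tested.

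In ACEi, 4 of 5 genes were called lower than in WT, where 22.5% of all genes tested were, and 47.7% in either direction. The log2 fold changes were -0.98 for Slc12a1, -0.88 for Bsnd, -0.86 for Casr and -0.61 for Kcnj1. Umod had a log2 fold change of -0.41 and was not called (SE 0.23, edgeR adjusted p = 0.142). With flow cell as a term it was called, at -0.54 (edgeR adjusted p = 0.033). Every ACEi mouse was below every WT mouse in all 5 genes, which held for 22.3% of all genes tested.

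The treatments were compared with each other directly, since a gene called in one comparison with Veh and not in the other is not thereby shown to differ. By edgeR, 0 of 5 genes were called, and 0.584% of all genes tested were. The means of Anti-miR-21 were above those of ACEi in all 5 genes, with log2 differences of 0.42 for Slc12a1 (SE 0.22), 0.38 for Casr (SE 0.15), 0.24 for Umod (SE 0.22), 0.18 for Kcnj1 (SE 0.16) and 0.18 for Bsnd (SE 0.16). The edgeR adjusted p-values lay between 0.259 and 0.648. The groups were spread unevenly, with 5 Anti-miR-21 mice on flow cell A and 1 on B, and 1 and 2 ACEi mice. On flow cell A the means of Anti-miR-21 and ACEi were 511 and 306 CPM for Slc12a1 and 4570 and 3048 for Umod. They were 161 and 124 for Kcnj1, 59.2 and 48.4 for Bsnd and 12.5 and 9.16 for Casr. On flow cell B they were 475 and 413 for Slc12a1 and 4406 and 4265 for Umod. For Kcnj1, Bsnd and Casr they were 150 and 148, 55.6 and 53.5, and 13.9 and 10.1. At an unadjusted p under 0.05, 1 of the 5 genes passed in edgeR, Casr, as did 2562 of all 17622 genes tested. DESeq2 called 0 of 5 after adjustment, beside 2.6% of all genes.

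The scaling between libraries set the size of these changes. Over all genes tested, the median of the log2 fold changes between Veh and WT was 0.07 after TMM and 0.65 when libraries were divided by their totals alone. On the latter scale Slc12a1, Kcnj1 and Bsnd were called lower in Veh, at -0.53, -0.55 and -0.61, and Umod and Casr, at -0.33 and -0.29, were not (edgeR adjusted p = 0.0846 and 0.076). On that scale 81.2% of all genes tested were called in either direction. Relative to the median of all genes, Slc12a1 was lower by 1.17 after TMM and by 1.18 with totals alone, and Umod by 0.97 and 0.99, a distance that a change of scaling leaves alone by construction. For Anti-miR-21 against Veh, totals alone left Umod and Kcnj1 called, at 0.40 and 0.37, beside 69.9% of all genes tested. For ACEi against Veh, Slc12a1 and Casr turned to -0.14 and -0.26 with totals alone. There edgeR called 0 of 5 genes, beside 52.7% of all genes tested.

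**Figure D3:**
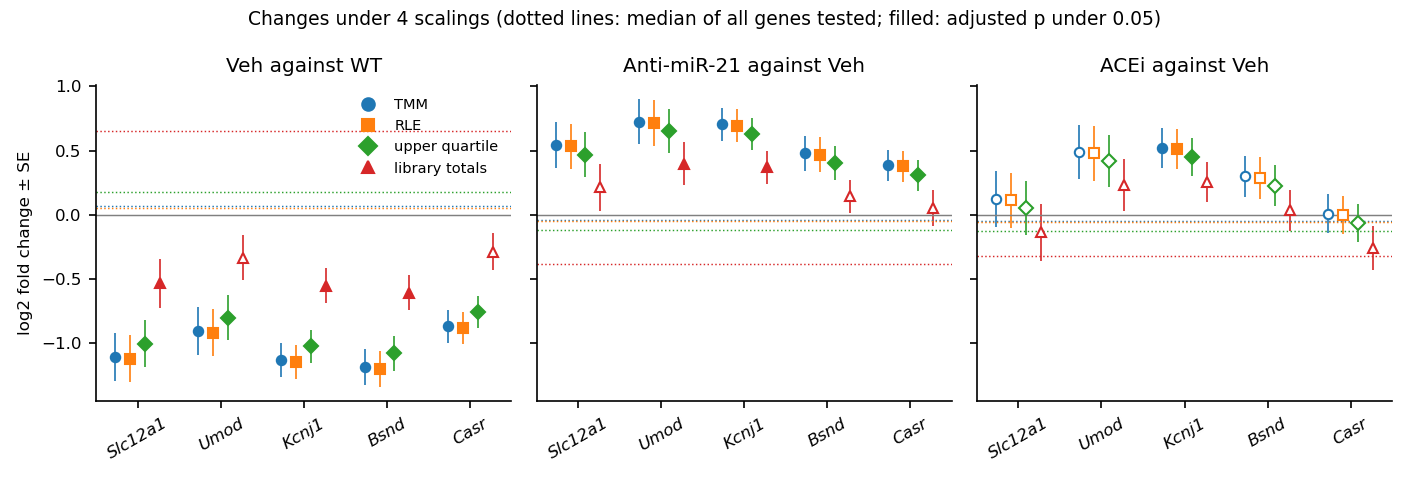
Log2 fold change of each gene with its SE (y axis) under 4 scalings (marker shapes) in the 3 comparisons that involve Veh, with the median of all genes tested under each scaling as a dotted line. The genes and the dotted lines move together: with library totals alone the median for Veh against WT is at 0.65 and Slc12a1 at -0.53, against 0.07 and -1.10 after TMM.

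The ratio of each gene to Slc12a1 within a mouse does not depend on the scaling of the library, and asks whether the 5 genes kept their proportions. In 12 exact two-sided permutation tests over mice, 0 ratios passed the threshold after Benjamini-Hochberg adjustment. With 3 ACEi mice against 6 Veh mice the smallest exact permutation p is 0.0238. After adjustment over 12 tests, such a ratio could pass only if several others were as small. The tests in ACEi therefore cannot show that the proportions were kept. Between Veh and WT the log2 ratios differed by 0.17 for Umod, -0.011 for Kcnj1, -0.083 for Bsnd and 0.28 for Casr, with exact permutation p of 0.203, 0.913, 0.606 and 0.147. The smallest p this design allows is 0.00433. The ratio of Kcnj1 to Slc12a1 was -1.79 ± 0.25 in WT (SD, n = 5) and -1.81 ± 0.11 in Veh (SD, n = 6).

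The largest differences of ratios were in ACEi, where Kcnj1 to Slc12a1 was -1.41 ± 0.15 (SD, n = 3) and thus 0.39 higher than in Veh, and Umod to Slc12a1 was also 0.39 higher. All 3 ACEi mice were above all 6 Veh mice in the first ratio. Its exact permutation p of 0.0238 is the smallest that 3 against 6 mice can give, and its adjusted p was 0.19. For Umod the exact permutation p was 0.0476 and the adjusted p 0.19. In Anti-miR-21, Kcnj1 to Slc12a1 was 0.15 higher than in Veh (exact permutation p = 0.0476, adjusted p = 0.19) and Umod to Slc12a1 0.21 higher (exact permutation p = 0.0693, adjusted p = 0.208).

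**Figure D4:**
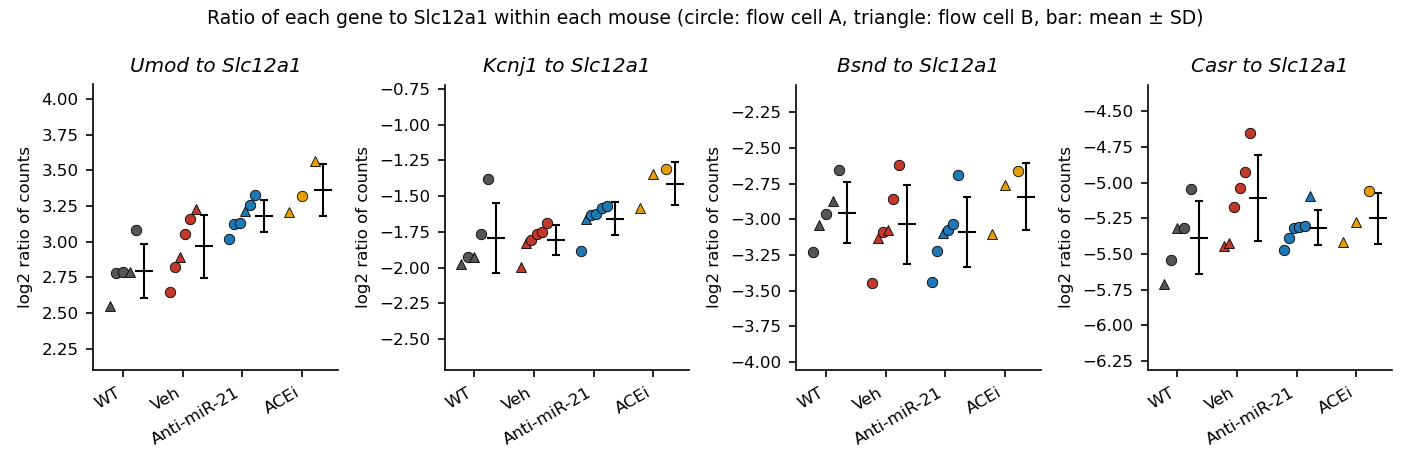
Log2 ratio of the counts of Umod, Kcnj1, Bsnd and Casr to those of Slc12a1 in each mouse (y axis, 2 log2 units in every panel) by group, with the mean ± SD beside the points. Veh overlaps WT, Anti-miR-21 and ACEi in each panel except for Kcnj1, where the 3 ACEi mice lie above the 6 Veh mice.

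Across the 20 mice, after removal of the group means, the 10 pairs of these genes had Pearson correlations of log2 CPM from 0.20 for Bsnd with Casr to 0.89 for Slc12a1 with Kcnj1. The points share the scaling of the library and the flow cell, and the values are given as a description. Among 13158 genes whose mean reached 1 on the log2 CPM scale, the 3 most alike to Slc12a1 in these deviations were Cyfip2 (r = 0.93), Prkcq (0.92) and Tmem72 (0.90). For Umod they were A4gnt (0.93), Tmem207 (0.93) and Sec14l3 (0.92), and for Kcnj1 Unkl (0.94), Fads6 (0.93) and Cyfip2 (0.92). For Bsnd they were the water channel gene Aqp6 (0.93), Tmem207 (0.92) and Akr1c18 (0.89), and for Casr Kat6a (0.89), Mink1 (0.88) and Slc25a30 (0.88).

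The transport partners of the 5 genes moved in the same direction as them in Veh and in Anti-miR-21. The 5 partners reported are a subunit and a regulator of the sodium pump (Atp1b1, Fxyd2), basolateral potassium channels (Kcnj10, Kcnj16) and the apical sodium-proton exchanger (Slc9a3). All 5 were called lower in the comparison of Veh with WT, as were 34% of all genes tested. Their median change was -1.15 on the log2 scale, beside 0.07 over all genes tested. Atp1b1 fell by 1.11, Fxyd2 by 1.53 and Slc9a3 by 2.25 on the log2 scale. In Anti-miR-21, 5 of 5 were called higher than in Veh (28.8% of all genes were), with a median of 0.74 beside -0.04 over all genes. In ACEi 3 of 5 were (21% of all genes were), with a median of 0.74 beside -0.05, and Kcnj10 at 0.23 and Slc9a3 at 1.43 were not called. The median of Slc12a1, Umod, Kcnj1, Bsnd and Casr in ACEi was 0.30, and 1 of these 5 was called higher. Slc9a3 had few counts for its FPKM, at 7.01 ± 4.69 CPM and 37.4 ± 2.62 FPKM in WT (SD, n = 5), whereas Kcnj10, of similar exon length, was at 68.9 CPM and 10.5 FPKM. On the FPKM scale the ACEi mice, at 27.4 to 31.7, were all above the Veh mice, at 10.2 to 22.1, so that its count values and calls are uncertain. Atp1b1, Fxyd2 and Slc9a3 are also strongly expressed in the proximal tubule. With library totals alone, 5 of 5 were called lower in Veh and 4 of 5 higher in Anti-miR-21. Of all genes tested, 81.2% and 69.9% were then called in either direction.

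The claudins that form the paracellular path for calcium, magnesium and sodium went in different directions. Cldn10, of which a splice form makes the sodium pore of the limb, fell by 1.71 on the log2 scale in Veh. Cldn16 and Cldn19, which together pass magnesium and calcium, rose by 0.59 and 0.40, and Cldn3 and Cldn14, the latter a blocker of the Cldn16 pore, rose by 2.25 and 1.29. Cldn14 averaged 0.17 CPM in WT, with no count in 1 mouse, and 0.42 CPM in Veh, so that it passed the filter through the groups where it was high and its call is not counted. Of the other 4, 3 were called higher in Veh, as were 39% of all genes tested, and 1 lower. Anti-miR-21 against Veh gave 1 called higher, Cldn10 at 1.15, and 3 called lower (30.5% of all genes tested were), Cldn3 at -1.55, Cldn19 at -0.51 and Cldn16 at -0.47. In ACEi Cldn10 was called higher at 0.82, and Cldn3 at -1.31 and Cldn19 at -0.59 lower, as were 19.1% of all genes tested.

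Of 12 kinases, receptors and other regulators of the limb, 8 were called lower in Veh, 1 higher and 3 were not called, with a median of -0.84. Over all genes tested 34% were lower and 39% higher. The kinase gene Wnk4 fell by 0.99 and Klhl3, whose product marks WNK kinases for degradation, by 1.27. The prostaglandin receptor gene Ptger3 fell by 1.19, the parathyroid hormone receptor gene Pth1r, which the proximal tubule also expresses, by 1.60, and Hpn, the protease that releases uromodulin from the cell, by 1.65. Maged2, whose loss gives a transient Bartter syndrome before birth, rose by 1.501. The kinase genes Stk39 and Oxsr1, whose products phosphorylate NKCC2, were at 0.067 and -0.069 and were not called. In Anti-miR-21 8 of the 12 were called higher than in Veh and 2 lower (median 0.54), beside 28.8% and 30.5% of all genes. In ACEi 5 were called higher and 2 lower (median 0.14), beside 21% and 19.1% of all genes. With library totals alone, 6 were called lower in Veh and 4 higher, where 81.2% of all genes tested were called in either direction.

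Of 11 further markers and transcription factors of the segment, 9 were called lower in Veh, 1 higher (Enox1) and Irx2 was not called, with a median of -1.37, beside 34% of all genes lower and 39% higher. The largest change was that of Egf, the growth factor made by the limb and the distal convoluted tubule, which fell by 4.43 on the log2 scale and was 3.17 higher in Anti-miR-21 and 2.46 higher in ACEi than in Veh. The transcription factor genes Irx1, Esrrb and Esrrg fell by 1.37, 1.89 and 1.14. Pou3f3, a factor of the limb's development, fell by 0.48 after TMM but was at 0.10 with library totals alone. In Anti-miR-21 8 of the 11 were called higher and 1 lower (median 0.86), where 28.8% and 30.5% of all genes were. In ACEi (median 0.51) 4 were called higher, Egf, Ppp1r1a, Esrrg and Wfdc15b, where 21% of all genes were. In the direct comparison of the treatments none of the 33 genes of these 4 lists was called by edgeR, beside 0.584% of all genes tested. With flow cell as a term 1 was, Ptger3, at 0.95 (edgeR adjusted p = 0.041), beside 0.573% of all genes tested.

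**Figure D5:**
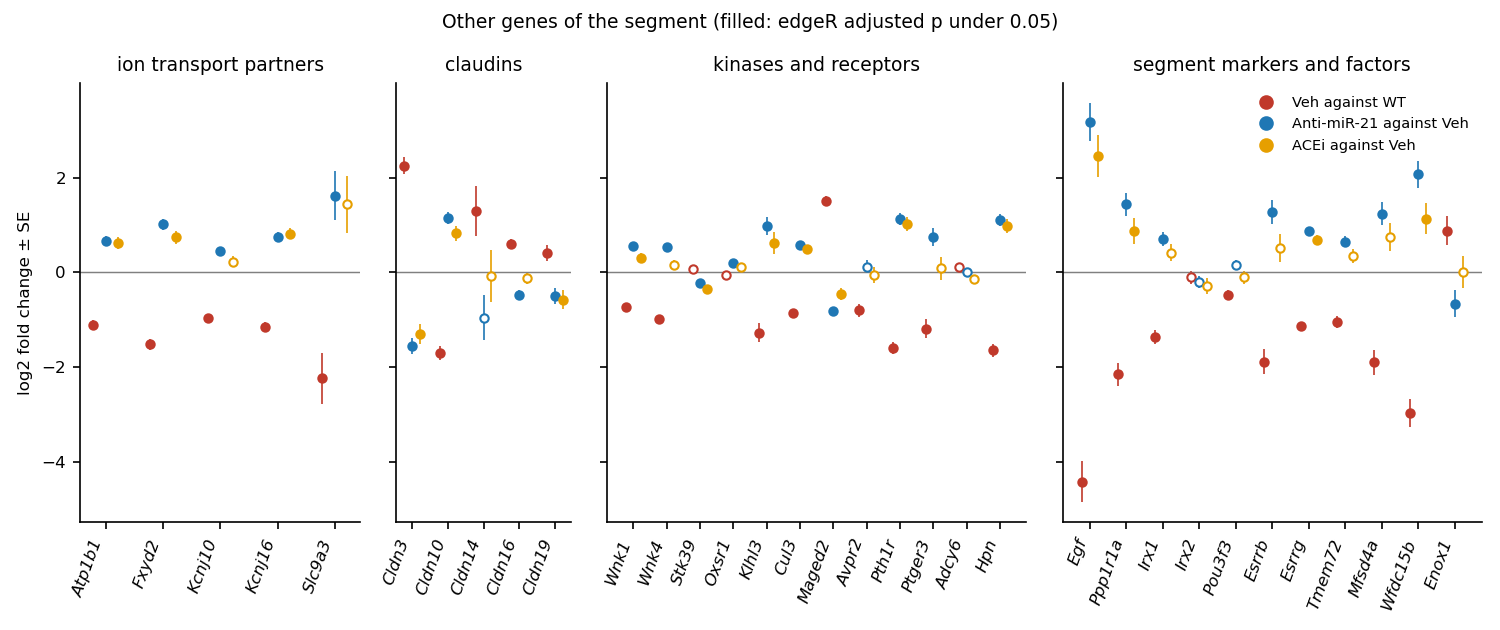
Log2 fold change with its SE (y axis) of the genes of 4 lists of the segment (panels) in 3 comparisons (colours), filled where edgeR's adjusted p was under 0.05. All 5 ion transport partners lie below 0 in Veh against WT and above 0 in both treatments against Veh, whereas 4 of the 5 claudins lie above 0 in Veh against WT.

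Markers of other cells were compared between the groups, and not all lists went the same way. All 5 macrophage markers were called higher in Veh than in WT and their sum was 137 to 166 CPM in WT, 1186 to 1443 in Veh, 485 to 946 in Anti-miR-21 and 592 to 802 in ACEi. All 5 fibroblast markers were called higher in Veh, with sums of 111 to 258 CPM in WT, 1503 to 1812 in Veh, 428 to 821 in Anti-miR-21 and 805 to 914 in ACEi. The 5 tubule injury markers summed to 166 to 233 CPM in WT, 1251 to 2216 in Veh, 430 to 770 in Anti-miR-21 and 762 to 921 in ACEi, and all 5 were called higher in Veh. The 5 T cell markers summed to 3.83 to 7.72 CPM in WT, 13.7 to 41.6 in Veh, 10.7 to 19.6 in Anti-miR-21 and 16.3 to 26.7 in ACEi. Of 5 podocyte markers 4 were called higher in Veh, and of 5 endothelial markers 2 were higher and 1 lower. Over all genes tested 39% were called higher in Veh and 34% lower, so the endothelial count of higher calls is near the share of all genes. Podocyte sums were 195 to 324 CPM in WT, 347 to 413 in Veh, 429 to 486 in Anti-miR-21 and 410 to 427 in ACEi. Thus neither treated group lay between Veh and WT in this list. Endothelial sums were 99.3 to 265, 226 to 284, 233 to 300 and 245 to 280 CPM in the same order of groups, and overlapped. Of the T cell markers, Cd3e and Cd3g averaged 0.18 and 0.30 CPM in WT. They passed the filter through the groups where they were high, so the calls of the T cell list are not counted. No marker of these lists was at 0 in any mouse. The part of these cells in the changes of Slc12a1, Umod, Kcnj1, Bsnd and Casr was not tested.

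Markers of other nephron segments were measured beside them. All 5 proximal tubule markers were called lower in Veh with a median log2 fold change of -1.95, and 5 of 5 were higher in Anti-miR-21 (median 1.59) and in ACEi (median 1.29). Of all genes tested, 34% were called lower in Veh, 28.8% higher in Anti-miR-21 and 21% higher in ACEi. Of 5 distal tubule markers 4 were lower in Veh, of 5 intercalated cell markers all 5, and of 5 principal cell markers 3, beside 34% of all genes tested. The medians were -1.46, -0.97 and -0.42, beside -1.10 for the 5 genes of the thick ascending limb. Sums of principal cell markers were 679 to 962 CPM in WT and 419 to 824 in Veh, which overlap, and 529 to 614 in Anti-miR-21, below every WT mouse, and 696 to 760 in ACEi. Sums of distal tubule markers were 844 to 1226 CPM in WT, 255 to 392.2 in Veh, 593 to 745 in Anti-miR-21 and 493 to 570 in ACEi. Sums of intercalated cell markers were 199 to 257 CPM in WT, 70.4 to 119.8 in Veh, 154 to 191 in Anti-miR-21 and 146 to 157 in ACEi. Thus both treated groups lay between Veh and WT in the last 2 lists. Whether the segments differ in the size of their change was not tested. Calls of the adipocyte list are not counted, since Lep was at 0 in mice of every group. The sums of its 5 markers in Veh ranged from 22.2 to 277 CPM. Adipoq and Plin1 were each at 0 in 1 Veh mouse and Lep in 2. The 3 highest sums in Veh, 173 to 277 CPM, were those of A1, A4 and A9 of flow cell A, and A16 and A20 were at 43.8 and 24.1 CPM. The lowest, 22.2 CPM, was that of A19, also of flow cell A.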

How the data were processed

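Total kidney RNA of 20 mice was sequenced as paired-end reads, and groups were taken from the labels. Per the labels, OmicSoft aligned them to GRCm38, and the authors deposited an estimated count (expected count) per Ensembl gene, of which 27.9% of positive values are not whole (tolerance 1e-06). They also deposited FPKM, normalized for length and library total. Their gene table holds exon lengths and coordinates, and their library table the counts of alignments (70004591 to 73294858 per library). Of the FPKM table, 3 libraries of no mouse in the labels were not used. Here counts were rounded and scaled by TMM. Genes passing filterByExpr (minimum count 10, minimum total 15) entered edgeR's quasi-likelihood fit (edgeR 4.0.16, R 4.3.3) with 1 coefficient per group over all mice, Benjamini-Hochberg adjustment over 17622 genes and a threshold of 0.05. Ratios were tested with scipy's exact permutation test. DESeq2 1.42.0 and limma 3.58.1 on log2(FPKM + pseudocount) were alternatives. Of these steps, the edgeR fit alone was tested on simulated counts. Far fewer genes were changed there than were called between Veh and WT. The labels do not say whether mice shared a litter. Some genes of the lists, and a motif, are not reported here, and the counts of the lists are over the genes that are. The members, gene lists and motifs were chosen with earlier results of these data known. The text names the 5 members, genes of the fixed lists, and for each member the 3 genes most alike in deviations from group means. No interval or floor was needed, since no member was at 0 in any mouse.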

Additional observations from a re-analysis of the deposited data

Results flagged for a closer look

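In 27 checks of single mice within groups of 5 or 6, 2 values lay far from the rest of their group by Dixon's criterion at the 95% level, where chance flags about 1 in 20. The Anti-miR-21 mouse A15 had 66.5 CPM of Bsnd, and the other 5 mice lay between 55.6 and 59.3 CPM. The Anti-miR-21 mouse A2 had a log2 ratio of Kcnj1 to Slc12a1 of -1.88, the lowest of its group. With A15 or A2 left out, 5 of 5 genes were called higher in Anti-miR-21 than in Veh. Of all genes tested, 56.2% and 58.6% were then called in either direction.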

How the results depend on the processing

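No paired analysis was possible because each mouse has a name of its own, which pairs no mice across groups. The number of the 5 genes called kept within 1.5 times its value under DESeq2, RLE and upper-quartile scaling, no filter, at least 10 counts in every mouse, flow cell as a term and only the groups compared. With library totals alone it was 3 for Veh against WT (beside 81.2% of all genes tested) and 2 for Anti-miR-21 against Veh (69.9%). It was 0 for ACEi against Veh (52.7%) and 1 for Anti-miR-21 against WT (49.5%). Limma on log2(FPKM + 1) and on log2(FPKM + 0.1) gave the same numbers of the 5 genes. With log2(FPKM + 1) the shares of all genes called in these comparisons were 66.9%, 57.9%, 44.9% and 36.4%. With log2(FPKM + 0.1) the shares were 67.6%, 57.8%, 42.7% and 37.7%. Within flow cell B, 0 of the 5 genes were called for ACEi against Veh, beside 7.35% of all genes tested there. Leaving out 1 mouse gave 5 throughout for Veh against WT, beside 70.9% to 72.8% of all genes tested. For Anti-miR-21 against Veh it gave 5, beside 54.8% to 58.9%. It gave 4 for Anti-miR-21 against WT (37.8% to 45.1%) and 4 for ACEi against WT (38.1% to 47.8%). Between the treatments it gave 0 (0.117% to 1.22%), and for ACEi against Veh 0 to 3 (27.7% to 41.7%). The median of all genes with library totals alone was 0.65 for Veh against WT (0.18 with the upper quartile), -0.38 for Anti-miR-21 against Veh, -0.32 for ACEi against Veh, 0.26 for Anti-miR-21 against WT and 0.31 for ACEi against WT. In ACEi against Veh, Casr turned to -0.063 with the upper quartile, -0.26 with totals, -0.031 with flow cell as a term, -0.11 within flow cell B, -0.19 with log2(FPKM + 1) and -0.26 with log2(FPKM + 0.1), and ranged from -0.10 to 0.094 over mice left out. Slc12a1 turned to -0.14 with totals, -0.19 within flow cell B and -0.13 with either FPKM scale, and ranged from -0.088 to 0.28 over mice left out. Bsnd turned to -0.038 within flow cell B. Umod in Anti-miR-21 against WT turned to 0.066 with totals and to 0.064 with either FPKM scale. None of these reversed values was called. The difference of the Kcnj1 to Slc12a1 ratio between Veh and WT ranged from -0.056 to 0.093 over mice left out, and that of Bsnd to Slc12a1 between Anti-miR-21 and Veh from -0.14 to 0.028. By Spearman's rho, 7 of the 15 most alike genes were still among the first 3. The causes of these changes were not tested. Flow cell B holds fewer mice than flow cell A, and the part of this was not tested either. At 248 to 507 counts per mouse, Casr had the fewest counts of the 5 genes.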
